A study of Mus musculus
Mus spretus with 18 samples.

Results

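Micro-exons are the shortest cassette exons of mammalian genes. They encode only a few residues, and a spliceosome that recognises exons across their length has little sequence to hold on to, so their inclusion depends strongly on auxiliary factors. In neurons the SR-related proteins Srrm4 and Srrm3 promote their inclusion, whereas the polypyrimidine tract binding protein Ptbp1 is a known repressor of neuronal exons. Rbfox, Nova, Celf and Mbnl proteins act on further exons in brain and muscle. Inclusion of an exon whose length is a multiple of 3 leaves the reading frame of a coding transcript as it was.

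The micro-exons described here were the autosomal skipped exon (SE) events of 30 bp or less that had at least 20 junction reads in both libraries of at least 2 tissues. This rule used length and read depth and set no limit on inclusion. An event not listed for a tissue in the deposited counts was taken as having no reads there. An expressing tissue is therefore one that met the read minimum for the event, and a tissue can express the gene without having a PSI. Tmed2, for example, stood at 103 TPM in kidney and 94.7 TPM in ESC, where its exon had no PSI. It kept 892 of 47963 SE events that met the same read minimum, and 892 of the 1918 short events present before it. Because an exon can belong to several events with different flanking exons, the 892 events stood for 786 distinct exons in 666 genes, among 40695 exons in 11352 genes of the whole series. All 666 genes were found in the RefSeq gene table, and 657 of them were protein-coding. Exon and intron sequences were not analysed here, nor was the position of each exon in the coding region or a UTR.

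RNA-seq was done on F1 hybrids of a C57BL/6J mother and a SPRET/EiJ father, so that each cell carries an allele of the laboratory strain and an allele of a wild-derived Mus spretus strain. Cortex, heart, kidney, lung, spleen and liver came from 8-week-old females of 2 animals, with 2 libraries each, and the liver libraries were taken by the study from its earlier work on those animals (their labels give the maternal strain as C57BL/7J and C57BL/8J). The 2 libraries of embryonic stem cells (ESC) are independent clones of the same cross, and ESC are counted here as the seventh tissue. Fibroblasts of the cross were exposed for 4 h to 0.1 µM of pladienolide B, an inhibitor of the SF3B component of the spliceosome, or to DMSO, with 2 libraries per treatment. Nothing states that these came from separate cultures, so the fibroblast p-values measure only the spread between the libraries, which may be technical. The 14 tissue libraries held between 46558287 (cortex) and 129496306 (liver) junction reads over all SE events, and the median expressed micro-exon event was supported by 224.5 to 396.0 reads per library. Markers of each labelled tissue were highest there. On the TPM scale of transcript abundance, Snap25 and Syt1 had means of 902 and 649 TPM in cortex, Myh6 12000 TPM in heart, Umod 6040 TPM in kidney, Sftpc 32300 TPM in lung, Cd79a 1210 TPM in spleen, Alb 93600 TPM in liver and Pou5f1 1200 TPM in ESC. Lung also held heart muscle transcripts: the 4 heart markers Myh6, Tnnt2, Actn2 and Ryr2 summed to 486 and 380 TPM in its libraries, against 31600 and 31300 TPM in heart.

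The 786 exons were between 3 and 30 bp long, and longer ones were more frequent. The lengths most often seen were 30 bp (101 exons), 27 bp (98 exons) and 24 bp (92 exons), and 13 exons had 3 bp. A multiple of 3 was the length of 550 of them (70.0%), against 41.6% of all exons. Frame-preserving exons outnumbered the others in each of 5 length classes, as the plot of exon numbers by length shows.

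**Figure D1:**
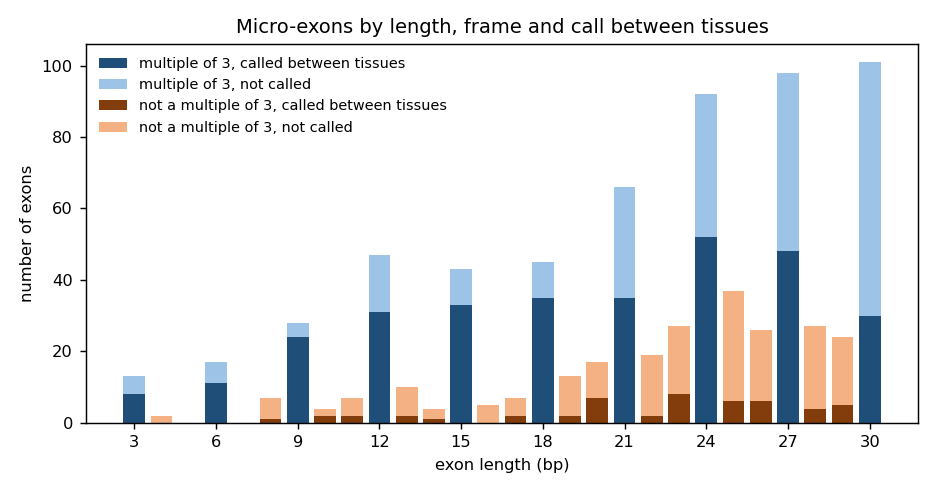
Number of distinct micro-exons (vertical axis) at each length in bp (horizontal axis). Blue bars are lengths that are a multiple of 3 and brown bars the others, and the dark lower part of each bar is the number called different between tissues. The blue bars hold 550 of 786 exons and 307 of the 357 called.

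Inclusion was expressed as percent spliced in (PSI), the fraction of transcripts that contain the exon, on a scale from 0 to 1. A difference between tissues was called where the quasi-binomial test gave an adjusted p under 0.05 and the mean PSI of the highest and lowest expressing tissue, whose difference is the switch score, lay at least 0.1 apart. Micro-exons differed between tissues far more often than other exons did. In total 383 of the 892 events were called (42.9%), while 11.1% of all events were. Their median switch score was 0.0816 against 0.0145 for all events. Counted once per exon, 357 of 786 were called, and 217 (27.6%) had a switch score of 0.5 or more, which was the case for 2.84% of all exons. Conversely, 319 micro-exons (40.6%) stayed above a PSI of 0.9 in every expressing tissue and 52 stayed below 0.1, whereas 77.7% of all exons stayed above 0.9. Events near 0 or 1 in all libraries can hardly reach the limit of 0.1, and none of them was called. Without them, 76.1% of the remaining 503 micro-exon events and 45.5% of the remaining 11655 events of any length were called. The relative contrast was thus smaller. Since this filter depends on the difference itself, these shares are a description and no further test. A bulk PSI is an average over cells, so fewer cells that include an exon and less inclusion in each cell cannot be told apart.

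Frame and tissue difference went together, in micro-exons and in exons of any length. Of the micro-exons whose length is a multiple of 3, 55.8% were called between tissues, against 21.2% of the 236 others, and the share in frame was 86.0% among called and 56.6% among uncalled micro-exons. Over exons of any length it was 54.5% among called and 39.9% among uncalled exons. Among the 217 micro-exons with a switch score of 0.5 or more, 205 (94.5%) were in frame, against 880 of 1157 (76.1%) exons of any length. Exons that were not a multiple of 3 tended to be constitutive, since 62.3% of them stayed above a PSI of 0.9 in every expressing tissue against 31.3% of those in frame. Within the in-frame exons the shorter ones varied more. The share called was 74.1% at 3 to 9 bp, 71.1% at 10 to 15 bp, 63.1% at 16 to 21 bp, 52.6% at 22 to 27 bp and 29.7% at 28 to 30 bp. There was no step at the length limit, since 25.7% of exons of 28 to 30 bp and 31.4% of those of 31 to 33 bp were called.

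Among the 13 exons of 3 bp, those of Spp1, Mybpc3 and Itih3 behaved differently from each other. In Spp1, which encodes the secreted protein osteopontin, the exon (mm10 chr5:104436901-104436903) had a PSI of 0.585 and 0.559 in kidney, 0.545 and 0.728 in spleen, 0.591 and 0.617 in ESC, 0.414 and 0.379 in cortex, 0.448 and 0.385 in liver and 0.183 and 0.195 in lung. Lung was thus the low tissue for this exon and lay below all 10 other libraries. In contrast, the exon of Mybpc3 (chr2:91122340-91122342), a myosin-binding protein of the heart sarcomere, was included at 0.996 and 0.997 in heart and 0.987 and 0.985 in lung. Mybpc3 stood at 3050 TPM in heart and 11.8 TPM in lung, where heart muscle transcripts were also found. Their part in the lung value was not tested. That of Itih3 (chr14:30914049-30914051), which encodes a plasma protein made by the liver, was included at 0.995 and 0.993 in liver and at 0.971 or more in each cortex and spleen library. These 2 exons passed no test between tissues.

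Cortex was the tissue of highest inclusion. Among micro-exon events expressed in cortex, 311 of 646 (48.1%) had a higher PSI there than in at least 1 other tissue, against 8.97% of all events, and 72 (11.1%, against 7.61%) had a lower PSI. Each pair of tissues gave the same picture. Against kidney, 43.3% of 473 events were higher in cortex (all events 6.12%) and 7.19% were lower (all events 5.4%). Against lung, 43.3% of 432 were higher (all events 6.32%) and 7.41% lower (all events 5.62%). Against spleen, 42.9% of 399 were higher (all events 7.11%) and 6.52% lower (all events 5.64%). Against liver, 41% of 293 were higher (all events 6.69%) and 6.83% lower (all events 7.13%). Against ESC, 46.1% of 434 were higher (all events 6.35%) and 3.92% lower (all events 4.87%).

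Of the events expressed in cortex and at least 3 other tissues, 143 of 438 (32.6%, against 2.93% of all events) exceeded every other expressing tissue, and 9 (2.05%, against 2.12%) lay below every one. The 143 events were 135 exons of 125 genes, 122 of them in frame. Their median PSI was 0.843 in cortex and 0.0827 in the next tissue. In 70 of them all other tissues stayed below 0.1, and 14 went from below 0.1 elsewhere to above 0.9 in cortex.

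**Figure D2:**
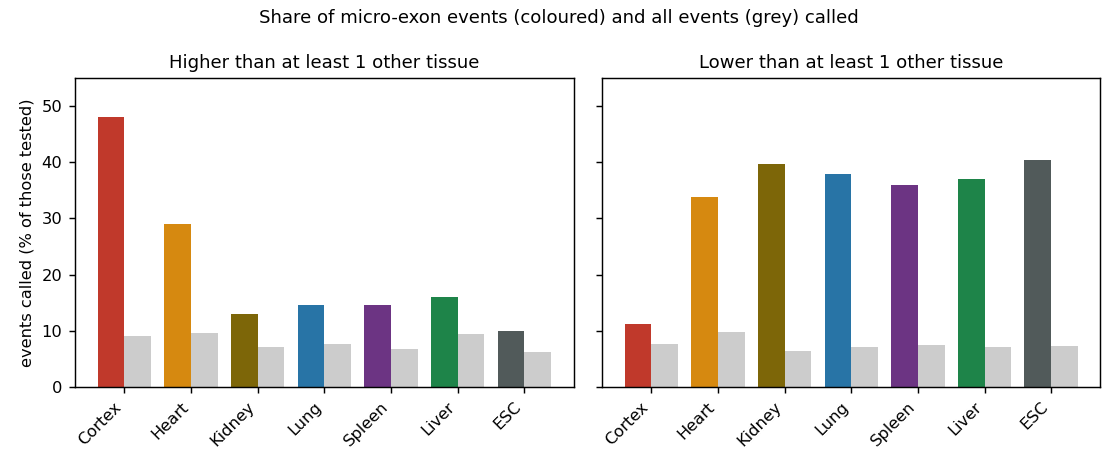
Percentage of tested events (vertical axis) called higher (left) or lower (right) in the named tissue than in at least 1 other tissue. Coloured bars are micro-exon events and grey bars all events. Cortex reaches 48.1% on the left and ESC 40.4% on the right, while grey bars stay between 6.09% and 9.67%.

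The largest differences were close to complete switches. The 24 bp exon of Mef2c (chr13:83654598-83654621), which encodes a transcription factor of neurons, muscle and lymphocytes, had a PSI of 0.973 and 0.98 in cortex. In heart it was 0.00293 and 0.00157, in kidney 0.00892 and 0, and in spleen 0.00715 and 0.00178. The difference from the nearest tissue was 0.972. The paralogs Mef2a (24 bp, chr7:67244521-67244544) and Mef2d (21 bp, chr3:88161781-88161801), singled out after their values were seen, had exons that were also highest in cortex, at 0.866 and 0.893 and at 0.93 and 0.968. Unlike that of Mef2c, they were largely included in heart as well, at 0.758 and 0.745 for Mef2a and at 0.754 and 0.78 for Mef2d, and at 0.222 or less in every library of the 5 remaining tissues.

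Synaptic genes gave further switches. In Synj1, a lipid phosphatase of synaptic vesicle recycling, the 24 bp exon (chr16:90971564-90971587) had a PSI of 0.96 and 0.953 in cortex and from 0.00336 to 0.0395, with a median of 0.0163, in the 8 libraries of 4 other tissues. In Shank3, a scaffold of the postsynaptic density, the 24 bp exon (chr15:89538015-89538038) reached 0.924 and 0.929 in cortex and at most 0.018 in the 8 libraries of heart, kidney, lung and spleen, with a median of 0.00565. In both genes the cortex libraries lay far above all others. The 15 bp exon of Sidt1 (chr16:44255967-44255981) was included at 0.991 and 0.982 in cortex and between 0.0119 and 0.0732 elsewhere, and the 30 bp exon of 6430548M08Rik (chr8:120157468-120157497) at 0.928 and 0.905 in cortex and at most 0.026 elsewhere. Tnnt2, the troponin T of heart muscle, entered the same list with a 30 bp exon (chr1:135843785-135843814) that heart nearly always skipped. Its PSI was 0.956 and 0.875 in cortex, from only 31 and 43 reads, and 0.00962 and 0.0107 in heart, from 137840 and 129355 reads, and gene expression in cortex was 8.08 TPM against 17700 TPM in heart. Exons of Cers6 and Dctn1 completed the 8 largest differences. In these 8 exons the adjusted p was at most 6.7e-08 against any other tissue.

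**Figure D3:**
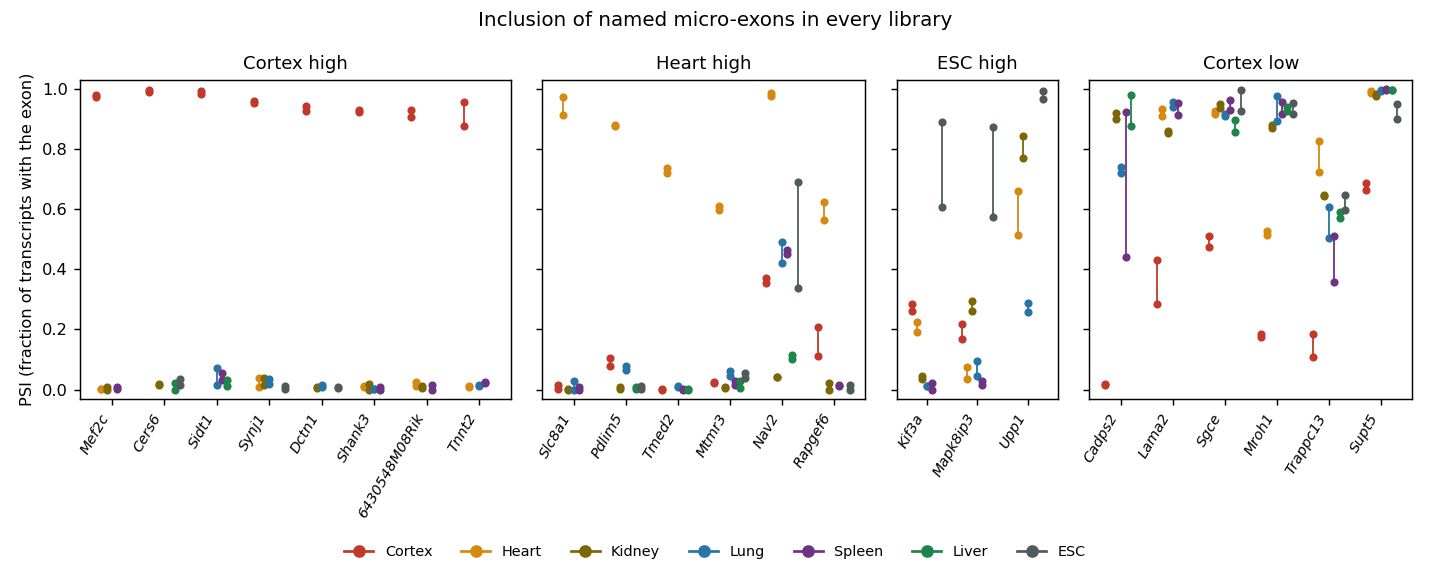
PSI (vertical axis, fraction from 0 to 1) of the named micro-exons in each expressing tissue, with a point for each of the 2 libraries joined by a line. The panels show exons highest in cortex, heart and ESC and lowest in cortex. Cortex points lie at 0.875 or above in the first panel, and the ESC libraries lie far apart for Kif3a and Mapk8ip3.

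Grouped by the function of the host gene, micro-exons of synapse and vesicle release genes varied most. Of 35 such exons 31 (88.6%) were called between tissues, 34 were in frame, and 16 of the 20 expressed in cortex and at least 3 other tissues were higher in cortex than in every one of them. Exons of any length in the same gene group were called in 32.0% and higher in cortex in 19.7%. Genes of the cytoskeleton and motors contributed the largest group, with 58 of 80 exons called (72.5%, against 24.0% of all exons of the group) and 20 of 56 cortex-high (35.7%, against 12% of all exons of the group). Membrane traffic and endocytosis followed with 29 of 42 called (69.0%, against 13.5%), ion channels and transporters with 21 of 31 (67.7%, against 11.5%), and kinases, phosphatases and GTPase signalling with 36 of 64 (56.2%, against 11.5%). Adhesion genes had 13 of 24 called (54.2%, against 17.5%) and 1 of 6 cortex-high (16.7%, against 9.7%). RNA binding and translation genes had 11 of 21 called (52.4%, against 12.4%), and in this group 10 exons were in frame. In transcription and chromatin genes 11 of 31 exons were called (35.5%, against 14.4%). The 460 exons of genes outside these lists were called in 32.4%, against 9.93% for exons of any length in such genes. Cortex-high shares were 50% in membrane traffic (against 7.75%), 50% in ion channels (against 4.35%) and 51.3% in kinases (against 6.13%). They were 29.4% in transcription (against 2.19%), 23.5% in RNA binding (against 3.25%) and 22.1% outside the lists (against 1.91%). Over all micro-exons 135 of 420 were cortex-high (32.1%, against 3% of all exons). Src, a tyrosine kinase with a known neuronal form, and Eif4g1, a scaffold of translation initiation, serve as examples chosen after their values were seen. The 18 bp exon of Src (chr2:157458843-157458860) had a PSI of 0.802 and 0.822 in cortex, 0.0464 and 0.193 in heart and at most 0.103 in the remaining libraries. The 21 bp exon of Eif4g1 (chr16:20674786-20674806) was included at 0.799 and 0.815 in cortex and at most 0.0221 in all 12 other libraries.

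The 9 events that were lower in cortex than in every other tissue, a share like that of all events (2.05%, against 2.12%), were 8 exons, all in frame, of which 6 are described. In Cadps2, a priming factor of dense-core vesicles, the 15 bp exon (chr6:23320933-23320947) was skipped in cortex, at 0.0148 and 0.0173, and included at 0.9 and 0.918 in kidney, 0.721 and 0.741 in lung and 0.98 and 0.877 in liver. The spleen libraries were far apart at 0.44 and 0.922, from 29 and 30 reads. Mroh1 had a 27 bp exon (chr15:76432372-76432398) with a PSI of 0.173 and 0.185 in cortex, 0.526 and 0.513 in heart and at least 0.869 in the 10 libraries of the remaining tissues, so heart took a middle position. The 12 bp exon of Lama2 (chr10:27021461-27021472), which encodes a laminin chain of muscle basement membrane, was at 0.432 and 0.285 in cortex and between 0.853 and 0.955 elsewhere. The 27 bp exon of Sgce (chr6:4690469-4690495), which encodes epsilon-sarcoglycan, was at 0.509 and 0.473 in cortex and at least 0.857 elsewhere. In Trappc13, a subunit of a vesicle tethering complex, the 18 bp exon (chr13:104152165-104152182) was at 0.185 and 0.108 in cortex and between 0.359 and 0.827 elsewhere. Supt5, a transcription elongation factor, had the smallest difference, with its 12 bp exon (chr7:28330018-28330029) at 0.665 and 0.685 in cortex and at least 0.9 elsewhere. The largest adjusted p among these 6 exons was 6.05e-06, and none of the cortex libraries overlapped another tissue.

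By calls against other tissues, heart followed cortex, although its median PSI was not the next. Of 525 micro-exon events expressed in heart, 153 (29.1%, against 9.65% of all events) had a higher PSI there than in at least 1 other tissue, and 178 (33.9%, against 9.67%) had a lower PSI. Apart from cortex, heart exceeded each tissue more often than the reverse. Heart was higher than kidney in 22.9% of 402 events and lower in 5.47%, against 4.6% and 4.51% of all events. It was higher than lung in 19.3% of 405 and lower in 4.44%, against 4.34% and 3.66%, and higher than spleen in 23.7% of 367 and lower in 5.72%, against 5.62% and 4.49%. It was higher than liver in 20.8% of 279 and lower in 7.89%, against 4.95% and 5.93%, and higher than ESC in 25% of 388 and lower in 4.9%, against 5.64% and 4.78%. Cortex in turn exceeded heart in 35.8% of 427 events and lay below it in 9.13%, against 6.77% and 5.67%. Among the 55 exons that were expressed in all 7 tissues and higher in cortex than in the other 6, heart was the second tissue in 28 and ESC in 10. The median PSI of these exons was 0.132 in heart and between 0.0245 and 0.0519 in the 5 other tissues outside cortex. The same ranking was not made for cortex-high exons of any length, so whether it is particular to micro-exons was not tested.

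Of 395 micro-exons tested, 16 were higher in heart than in every other expressing tissue (3.83% of events, against 0.943% of all events), and 15 of them were in frame. In 7 events heart was lower than every other (1.67%, against 0.789%). The 15 bp exon of Slc8a1 (chr17:81441652-81441666), the sodium-calcium exchanger of cardiac muscle, had a PSI of 0.973 and 0.914 in heart and from 0 to 0.0278 in the 8 other libraries. The 18 bp exon of Pdlim5 (chr3:142304705-142304722), a PDZ-LIM protein of the sarcomeric Z-disc, was included at 0.881 and 0.875 in heart, 0.079 and 0.104 in cortex, 0.0777 and 0.0656 in lung and at most 0.0104 in kidney, liver and ESC. The 21 bp exon of Tmed2 (chr5:124543487-124543507), a cargo receptor between endoplasmic reticulum and Golgi, was at 0.738 and 0.72 in heart, 0.0109 and 0.00829 in lung and at most 0.000769 in cortex, spleen and liver. Tmed2 expression differed little beside this, at 97.5 TPM in heart and between 53.7 and 111 TPM in the other tissues. In these 3 exons heart stood alone among the tissues with a PSI. No PSI was available for Slc8a1 in liver and ESC, for Pdlim5 in spleen or for Tmed2 in kidney and ESC.

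Other exons were graded. In Nav2, a microtubule-associated protein, the 9 bp exon (chr7:49575247-49575255) was at 0.986 and 0.975 in heart and 0.0402 and 0.0419 in kidney. It was intermediate in lung (0.489 and 0.422), spleen (0.451 and 0.465) and cortex (0.354 and 0.371), and the ESC clones differed (0.69 and 0.339). The 27 bp exon of Mtmr3 (chr11:4484671-4484697), a phosphoinositide phosphatase, had a PSI of 0.611 and 0.597 in heart and at most 0.0628 in 12 other libraries, and the 24 bp exon of Rapgef6 (chr11:54671655-54671678), an exchange factor of Rap GTPases, one of 0.623 and 0.562 in heart and 0.208 and 0.111 in cortex. The largest adjusted p among the 6 heart-high exons was 1.4e-08.

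ESC lay more often below than above another tissue, as did kidney, lung, spleen and liver, although the median PSI of micro-exons was 0.821 in ESC, against 0.888 in cortex, 0.758 in heart and between 0.688 and 0.818 in the remaining tissues. Of 579 micro-exon events 234 (40.4%, against 7.18% of all events) had a lower PSI in ESC than in at least 1 other tissue, and 58 (10.0%, against 6.09%) had a higher one. In 14 events ESC lay below every other expressing tissue (3.23%, against 0.707%) and in 3 above (0.693%, against 0.416%). The 3 exons belonged to Kif3a, Mapk8ip3 and Upp1. The 9 bp exon of Kif3a (chr11:53590717-53590725), a subunit of the kinesin-2 motor, had a PSI of 0.606 and 0.889 in ESC, 0.283 and 0.26 in cortex, 0.19 and 0.226 in heart and at most 0.0465 in kidney, lung and spleen. The 24 bp exon of Mapk8ip3 (chr17:24920472-24920495), a scaffold between kinesin and JNK kinases, was at 0.573 and 0.873 in ESC and between 0.0153 and 0.294 elsewhere. The 30 bp exon of Upp1 (chr11:9118631-9118660), which encodes uridine phosphorylase, was at 0.992 and 0.965 in ESC, 0.842 and 0.771 in kidney, 0.661 and 0.515 in heart and 0.259 and 0.287 in lung. The clones lay apart for Kif3a and Mapk8ip3 without reaching another tissue, and the median difference between the libraries of a tissue was 0.022 in ESC and between 0.0108 and 0.0168 in the organs. With the spread of each event taken where it was larger than the shared one, Mapk8ip3 lost its call (adjusted p = 0.15). Upp1 lost it without the second kidney library (adjusted p = 0.123). With the replicate number as a block in the quasi-binomial test, Mapk8ip3 (adjusted p = 0.133) and Upp1 (adjusted p = 0.102) lost their calls as well.

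Kidney, lung, spleen and liver rarely had a micro-exon to themselves. A higher PSI than in at least 1 other tissue was called in 12.9% of events in kidney (all events 7.02%), 14.6% in lung (all events 7.56%), 14.6% in spleen (all events 6.79%) and 15.9% in liver (all events 9.35%). A lower PSI was called in 39.8% in kidney (all events 6.42%), 37.9% in lung (all events 7.09%), 35.9% in spleen (all events 7.48%) and 37.1% in liver (all events 6.99%). Higher than every other expressing tissue were 1 event in kidney (0.216%, against 0.071%), 3 in spleen (0.694%, against 0.127%), 1 in liver (0.313%, against 0.266%) and none in lung (against 0.0447%). Lower than every other were 1 in kidney (0.216%, against 0.0757%), 4 in lung (0.899%, against 0.0845%), 4 in spleen (0.926%, against 0.4%) and 1 in liver (0.313%, against 0.116%). Picalm, a clathrin assembly protein, had the only exon called higher in kidney than in every other tissue, and its 24 bp exon (chr7:90194273-90194296) was graded over all tissues. It was at 0.952 and 0.942 in kidney, 0.794 and 0.763 in liver, 0.709 and 0.714 in cortex, 0.57 and 0.563 in lung, 0.313 and 0.293 in heart, 0.216 and 0.194 in spleen and 0.111 and 0.0537 in ESC. No neighbours in this order overlapped. In spleen 3 exons were called higher than in every other tissue, those of Arhgef1, Arhgap12 and Vps29. The 12 bp exon of Arhgef1 (chr7:24918520-24918531), a guanine nucleotide exchange factor abundant in lymphocytes, was at 0.891 and 0.894 in spleen, 0.573 and 0.588 in lung and at most 0.425 elsewhere, and without the second liver library its call was lost (adjusted p = 0.0527). In Arhgap12, a GTPase-activating protein, the 15 bp exon was at 0.737 and 0.587 in spleen and 0.45 and 0.396 in liver, the next tissue. Its call was lost without the first spleen library (adjusted p = 0.245) or without the second liver library (adjusted p = 0.162). It was also lost with the replicate number as a block in the quasi-binomial test (adjusted p = 0.0709). The exon of this kind in liver was the 15 bp exon of Arhgef10l (chr4:140568756-140568770), another exchange factor, at 0.757 and 0.741 against 0.0148 and 0.00154 in ESC and between 0.101 and 0.449 in the other tissues. Of the 128 called exons that all 7 tissues expressed, the highest mean PSI was in cortex for 85, heart for 16, spleen for 10, liver for 7, ESC for 4 and kidney and lung for 3 each. Cortex was thus highest for 66.4% of them, against 28.5% of the 2401 such exons of any length. Every other tissue was at or below the share for any length. Heart was highest for 12.5% (against 13.8%), spleen for 7.81% (against 10.6%) and liver for 5.47% (against 21.6%). ESC had 3.12% (against 14.3%), kidney 2.34% (against 6.33%) and lung 2.34% (against 4.96%).

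Several genes held more than 1 micro-exon. A single exon was found in 575 genes, 2 in 69 genes, 3 in 15 and 4 in 7, namely BC051142, Cadps2, Clasp2, Col13a1, Dctn1, Ptprd and Tnnt2. Exons of a gene did not always follow the same tissue. This was seen in Clasp1 and Macf1, chosen after their values were seen. Clasp1, which binds the growing ends of microtubules, had a 27 bp exon (chr1:118523321-118523347) included in cortex (0.882 and 0.894) and at most 0.0502 in heart, kidney and ESC. Its 24 bp exon (chr1:118541675-118541698) was included in cortex (0.858 and 0.887) and heart (0.836 and 0.833) alike. Its 3 bp exon (chr1:118547656-118547658) was skipped in heart, at 0.0295 and 0.0266, and included at 0.834 or more in the 8 libraries of cortex, lung, spleen and ESC. In Macf1, a linker of microtubules and actin, the 9 bp exon (chr4:123386549-123386557) was lowest in cortex (0.266 and 0.259) and the 18 bp exon (chr4:123364057-123364074) was lowest in spleen (0.0609 and 0.0621).

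Expression of 35 splicing regulators was examined in the same libraries. In cortex against the mean of the other tissues 28 were higher and 6 lower by limma on log2(TPM + 1), while 48.2% of all genes were higher and 33.3% lower. The median log2 fold change of the list was 2.41, against 0.23 for all genes. Srrm4 stood at 25.7 TPM in cortex and 12.5 TPM in heart and below 1 TPM in the 5 other tissues, so that it was higher in both cortex (log2 fold change 3.75 ± 0.08 SE, adjusted p = 7.68e-11) and heart (2.60 ± 0.08 SE, adjusted p = 4.49e-09). Srrm3 was found in cortex, at 28.4 TPM, and was below 0.1 TPM in all other tissues. Rbfox1 likewise had 244 TPM in cortex and 27.8 TPM in heart and at most 1.29 TPM elsewhere. Ptbp1 was lowest in cortex (23.7 TPM) and heart (31.8 TPM) and highest in ESC (348 TPM), and its paralog Ptbp2, the neuronal form, was highest in cortex (110 TPM).

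In heart 8 regulators were higher and 23 lower, while 17.2% of all genes were higher and 64.0% lower, with medians of -0.73 and -0.53. The highest in heart were the muscle regulators Rbm24 (144 TPM, log2 fold change 5.56 ± 0.11 SE, adjusted p = 1.9e-10) and Rbm20 (149 TPM, log2 fold change 5.06 ± 0.29 SE, adjusted p = 2.34e-07). Rbm20 also had 64.4 and 21.2 TPM in the ESC clones. Rbm38 stood at 133 TPM in heart but also at 120 TPM in spleen and 106 TPM in ESC. Esrp1 and Esrp2, regulators of epithelial cells, were at 12.4 and 38.3 TPM in kidney and at 13.9 and 29.2 TPM in lung. In liver Esrp2 was highest, at 54.2 TPM, with Esrp1 at 0.0519 TPM, and both were below 1 TPM in cortex and heart. Neuronal markers in heart were uneven: Snap25 had 0.0907 TPM, Syt1 0.105 TPM and Rbfox3 0.014 TPM, but Slc17a7 had 43.4 TPM, and the 4 markers summed to 49.8 and 37.4 TPM in the heart libraries against 2480 and 2750 TPM in cortex.

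**Figure D4:**
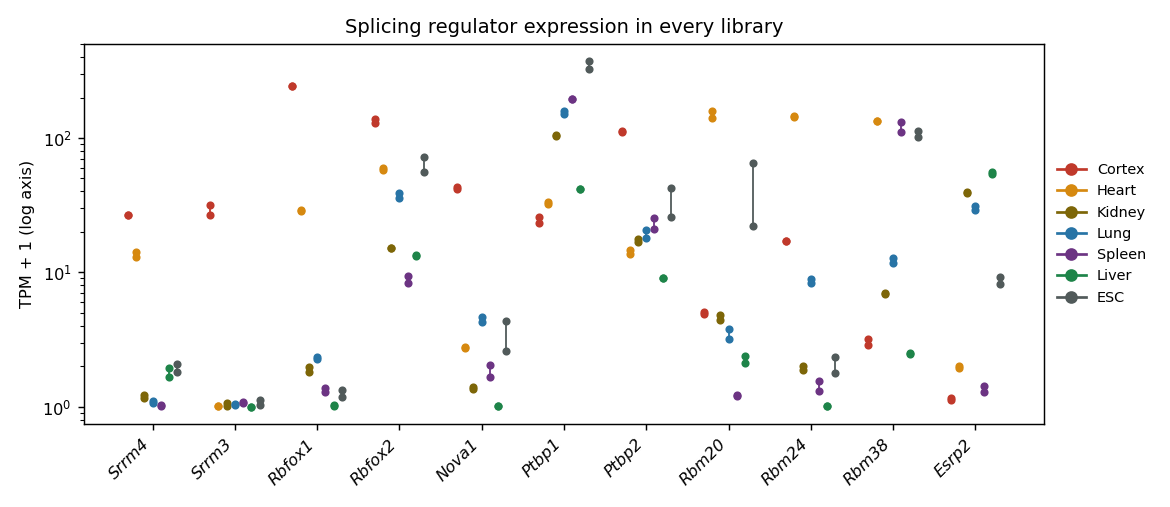
Expression of 11 splicing regulators as TPM + 1 on a log axis (vertical) in each tissue, with a point for each of the 2 libraries joined by a line. Srrm4 and Rbfox1 are highest in cortex and next in heart, Rbm20 and Rbm24 are highest in heart, and Ptbp1 is highest in ESC.

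Both alleles of a hybrid share the same cell and its trans-acting factors. Allelic PSI was compared in each tissue where both alleles had at least 20 reads in both libraries. In heart 21 of 311 micro-exon events were called (6.75%, against 3.01% of all events) and in cortex 17 of 419 (4.06%, against 3.11%). Kidney had 11 of 359 (3.06%, against 2.91%), lung 12 of 356 (3.37%, against 2.85%) and spleen 8 of 305 (2.62%, against 2.52%). Liver had 3 of 181 (1.66%, against 2.43%) and ESC 5 of 338 (1.48%, against 1.52%). Outside cortex and heart the share was thus near or below that of all events. Some of these counts were unstable: with 1 dispersion over all tissues and either library left out, cortex had 5 to 7 calls and kidney 2 to 4, and with the spread of each event where it was larger, cortex had 10, heart 12, kidney 7 and ESC 1. A difference in at least 1 tissue was called for 55 of 701 events (7.85%, against 4.3%), which were 51 exons. Of these 41 (80.4%) were in frame, as were 70.4% of the 635 micro-exons tested, and among exons of any length the shares were 47% of those called and 41.8% of those tested. Called between tissues were 42 of the 51 (82.4%) and 45.4% of the micro-exons tested, against 51.2% and 10.9% for exons of any length. Intermediate inclusion was more frequent in micro-exons: 25.5% of tested combinations of event and tissue had a PSI between 0.1 and 0.9, against 9.63% for all events. Within that range 11.9% of micro-exon combinations were called, against 18.5% for all events. With the library as a block in the quasi-binomial test, which leaves few degrees of freedom (a prior of 0.407 to 0.525), no event of any length was called in any tissue. At an unadjusted p under 0.05 that fit had 23 micro-exon events in heart, 12 in lung, 5 in ESC and 8 in each of the 4 other tissues. With the block and the dispersion of the fit without it, 19 events were called in heart and 17 in cortex, while lung had 12, kidney 11, spleen 8, ESC 5 and liver 4.

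Exons were ranked by the mean size of their allelic difference over the tissues where it was called, and those at the top of this order are described. In liver the 30 bp exon of 9030622O22Rik (chr2:147967242-147967271) had a PSI of 0.762 and 0.756 on the C57BL/6J allele and 0.0452 and 0.0304 on the SPRET/EiJ allele, from 38 to 65 reads (difference 0.721, adjusted p = 2.22e-09). In Tns1, a focal adhesion protein, the 24 bp exon (chr1:73936332-73936355) was nearly skipped in heart by the C57BL/6J allele (0.0249 and 0.0106) and included by the SPRET/EiJ allele (0.501 and 0.455), from 1426 to 1589 reads (adjusted p = 7.08e-111, and 0.0944 with its own spread). The 30 bp exon of Tcrg-C2 (chr13:19305769-19305798), in a constant region of the T cell receptor gamma locus, was at 0.386 and 0.646 on the C57BL/6J and 0.966 and 1 on the SPRET/EiJ allele in spleen (adjusted p = 0.00056, and 0.801 with its own spread). The 6 bp exon of Apbb3, an adaptor that binds the amyloid precursor protein, was higher on the C57BL/6J allele in every tissue tested. It was called in lung (0.764 and 0.738 against 0.378 and 0.39), spleen (0.918 and 1 against 0.604 and 0.628) and ESC (0.965 and 0.775 against 0.358 and 0.214). With 1 dispersion over all tissues, a setting that by itself kept the calls, leaving out either library removed the Apbb3 call in lung (adjusted p = 0.332 and 0.162) and spleen (0.102 and 0.185), and the ESC call had an adjusted p of 0.89 with its own spread.

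**Figure D5:**
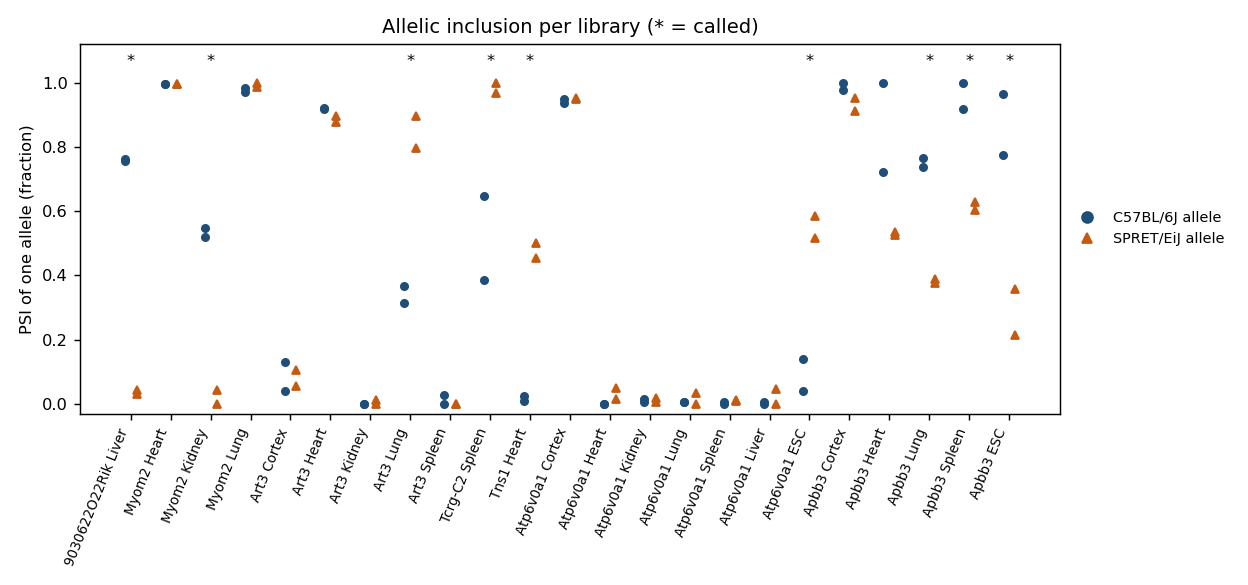
PSI (vertical axis, fraction from 0 to 1) of the C57BL/6J allele (circles) and the SPRET/EiJ allele (triangles) in each of the 2 libraries, for 7 of the exons with the largest called allelic differences, in every tissue with enough reads. Asterisks mark called differences, such as 9030622O22Rik in liver and Tns1 in heart.

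Of these 7 exons, 4 had enough allelic reads in more than 1 tissue for a test of allele by tissue, and in 3 of the 4 the allelic difference changed with the tissue. The 23 bp exon of Myom2 (chr8:15130635-15130657), a protein of the sarcomeric M-band, was included by both alleles in heart (0.995 and 0.996 against 0.995 and 0.994) and in lung (0.983 and 0.97 against 0.987 and 1). In kidney it was at 0.549 and 0.52 on the C57BL/6J and at 0 and 0.0448 on the SPRET/EiJ allele, from 35 to 84 reads (interaction adjusted p = 0.00284). Without the first kidney library, and with 1 dispersion over all tissues, the call was lost (adjusted p = 0.133). In Art3, a member of the ADP-ribosyltransferase family, the 30 bp exon (chr5:92412165-92412194) was at 0.918 and 0.922 against 0.895 and 0.878 in heart and at 0.367 and 0.313 against 0.795 and 0.896 in lung (interaction adjusted p = 6.81e-22). With its own spread the lung difference had an adjusted p of 0.286. Myom2 and Art3 were expressed at 571 and 230 TPM in heart and at 4.7 and 14 TPM in lung. Myom2 had 4.92 TPM in kidney, where heart muscle markers summed to 2.95 and 2.49 TPM. Lung held more of these markers, as given at the outset, and their part in the Art3 and Myom2 values of lung was not tested. The 18 bp exon of Atp6v0a1 (chr11:101049459-101049476), a subunit of the vacuolar proton pump, was included by both alleles in cortex (0.935 and 0.949 against 0.949 and 0.951) and skipped by both in the 5 other organs, at 0.0513 or less. In ESC, where inclusion was intermediate, the C57BL/6J allele was at 0.0416 and 0.14 and the SPRET/EiJ allele at 0.586 and 0.516 (interaction adjusted p = 0.00136). Without the first ESC clone, and with 1 dispersion over all tissues, the adjusted p was 0.0518.

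Over all micro-exons, the allelic difference varied between tissues for 13 of 528 events (2.46%, against 0.432% of all events). No alternative setting is reported here for this test, although deviations of the alleles of a library correlated, at 0.536 in ESC. The smallest adjusted p belonged to the 9 bp exon of Map4k4 (chr1:40008331-40008339), a serine/threonine kinase, named here after its values were seen. Its C57BL/6J allele exceeded the SPRET/EiJ allele by 0.383 in kidney, 0.424 in lung and 0.438 in spleen, but by 0.0577 in cortex and 0.0899 in heart, and it was lower by a difference of -0.208 in ESC (interaction adjusted p = 3.22e-23). The total PSI of this exon was 0.927 and 0.931 in cortex and between 0.295 and 0.425 in kidney, lung, spleen and liver.

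Allelic differences called in more than 1 tissue always had the same sign. There were 9 such exons, in Map4k4, Sptan1, Mars, Pecam1, Commd6, Apbb3, Nudt5, Blzf1 and Arhgef10l, and 42 exons were called in a single tissue. Of the 528 micro-exon events tested in more than 1 tissue, 46 were called in some and none in all of their tissues, against 1313 and 209 of 31700 events of any length. These 9 were chosen by their number of calls. The 23 bp exon of Pecam1 (chr11:106662002-106662024), an adhesion molecule of endothelial cells, was lower on the C57BL/6J allele in all 7 tissues, by differences from -0.46 in ESC to -0.258 in cortex, with 5 tissues called. The 24 bp exon of Mars (chr10:127296717-127296740), which encodes methionyl-tRNA synthetase, was also lower on the C57BL/6J allele in all 7, from -0.486 in heart to -0.0916 in ESC, with 5 called. The 9 bp exon of Nudt5 (chr2:5866233-5866241), a nucleotide sugar hydrolase, was higher on the C57BL/6J allele in all 7, from 0.103 in heart to 0.229 in ESC, with 3 called.

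In fibroblasts pladienolide B lowered the inclusion of micro-exons about as often as that of other exons. Of 440 events tested 37 (8.41%, against 7.86% of all events) were lower and 2 (0.455%, against 0.138%) were higher than with DMSO, and the median change in PSI was -0.00514 for micro-exons and -0.00524 for all events. Without the second treated library 24 micro-exon events were lower, and without a DMSO or a treated library 0 or 1 was higher, with 0 when the first DMSO library was left out. With the replicate number as a block no event of any length was called, and 42 micro-exon events had an unadjusted p under 0.05. The largest change was in the 23 bp exon of 2700062C07Rik, from 0.78 and 0.791 with DMSO to 0.141 and 0.126 with pladienolide B (adjusted p = 1.89e-70). The 3 bp exon of Asxl2 (chr12:3445452-3445454), a chromatin regulator, went from 1 and 0.987 to 0.465 and 0.576 (adjusted p = 1.43e-09). The 26 bp exon of Srpk1 (chr17:28600869-28600894), a kinase of SR splicing factors, went from 0.966 and 0.941 to 0.468 and 0.525 (adjusted p = 7.09e-10). In these 3 exons the treated libraries lay far below the controls. The 18 bp exon of Trim26 (chr17:36854284-36854301), an E3 ubiquitin ligase, fell from 0.752 and 0.75 to 0.44 and 0.175, and without the second treated library its adjusted p was 0.22. The 21 bp exon of Mllt4 (chr17:13848355-13848375), the junction protein afadin, fell from 0.939 and 0.977 to 0.601 and 0.497, with an adjusted p of 0.143 when its own spread was used. The 9 bp exon of Relb (chr7:19622926-19622934), an NF-kappa-B subunit, fell from 0.411 and 0.449 to 0.0706 and 0, with an adjusted p of 0.142 without the second treated library. The 2 exons that were higher with pladienolide B were in AU019823, from 0.188 and 0.133 with DMSO to 0.443 and 0.477 with the inhibitor, and in Layn, from 0.503 and 0.52 with DMSO to 0.633 and 0.6.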

How the data were processed

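Per the labels and the methods of the study, the authors aligned reads with HISAT2 2.0.1 to mm10 and to a SPRET/EiJ genome made from it, gave each read to the genome with fewer mismatches and counted junction reads with rMATS. The deposited tables hold whole junction counts per event and library and effective lengths, and a further table that the authors made with featureCounts holds TPM. Alignment needs both short junctions of a micro-exon to be found, and its effect was not tested. PSI was computed from counts over effective lengths.

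Counts of inclusion and skipping were compared by a quasi-binomial test in R 4.3.3, with dispersion moderated along read depth by limma 3.58.1, and p-values were adjusted by Benjamini-Hochberg over all autosomal events. Moderation gave each event the spread shared at its depth, so that very small p-values rest on this sharing. A second calculation used the event's own spread where larger. TPM were compared by limma on log2(TPM + 1) for genes with at least 1 TPM in 2 libraries. Allelic events needed a PSI from allelic reads within 0.1 of the total. The deposited p-values and differences of the authors were not used. Each group had 2 libraries. Methods were tested on simulated data.

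Named exons were those with the largest PSI difference from the nearest other tissue (8 for cortex, 6 for heart, ESC and low cortex, 2 for other tissues). Added to them were the 8 largest allelic (mean over called tissues) and 6 largest pladienolide B differences. From the 13 exons tied at the shortest length of 3 bp, 3 were named, which is no ranking among the 13. The result of 1 exon of the allelic list is not reported here. Members and lists were chosen with earlier results of these data known. Both alleles of a library come from the same animal or clone, and their deviations correlated at 0.0153 to 0.536 over tissues. The first sample of each allelic table was taken as C57BL/6J, the mother: the expressed parental allele had more reads in all 7 imprinted genes checked. Alternatives covered read and PSI limits, effective lengths, dispersion, blocks and leaving out libraries, of which the event's own spread and the block with the dispersion of the fit without it were added after seeing the data.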

Additional observations from a re-analysis of the deposited data

Results flagged for a closer look

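The allelic difference of 13 micro-exon events differed between tissues by the test of allele by tissue, which compares the differences on the logit scale and sets adjusted p-values over 31700 events. The adjusted p was 3.22e-23 for Map4k4, 6.81e-22 for Art3, 1.1e-06 for Sptan1, 0.000179 for Ap2m1, 0.00136 for Atp6v0a1 and 0.00284 for Myom2. It was 0.0111 for Clstn1, 0.0118 for Ctnnd1, 0.0125 for Dst, 0.0131 for Ctage5, 0.0217 for Pdlim7, 0.0397 for Cpeb3 and 0.0452 for Acly. The allelic difference spanned 0.647 over 6 tissues for Map4k4, 0.54 over 5 for Art3 and 0.529 over 3 for Myom2, but 0.107 over 7 for Ap2m1. In Clstn1, Ctnnd1, Dst, Ctage5 and Acly no single tissue was called. No alternative setting is reported here for the test of allele by tissue. The 15 bp exon of Sptan1, a spectrin chain, showed a C57BL/6J minus SPRET/EiJ difference of 0.301 in heart, 0.329 in lung and 0.183 in spleen, against -0.00538 in cortex, where its total PSI was 0.966 and 0.969. The 18 bp exon of Ctnnd1, which encodes p120 catenin, had -0.13 in cortex and 0.0757 in lung.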

How the results depend on the processing

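The number of micro-exon events called between tissues (383) ranged from 297 with the replicate number as a block to 387 with a minimum of 10 reads, and leaving out a library gave 366 to 382. Whether a number marks the same animal in each organ is not stated in the sources used here. Deviations of same-numbered libraries correlated at -0.0505 to 0.0796 among organs and at -0.102 to 0.0585 in pairs with ESC. No shared deviation was thus detected. Over all counts and medians recomputed, 273 values were within 1.5 times the main one and 35 were not. The allelic and pladienolide B counts moved more. With a PSI limit of 0.2 the allelic calls were 10 in cortex, 11 in heart, 6 in kidney and 4 in spleen, and the pladienolide B calls 22 lower and 1 higher. Without a depth trend cortex had 27. With 1 dispersion over 7 tissues heart had 32 and ESC 13. With the event's own spread where larger, cortex had 10, heart 12, kidney 7 and ESC 1, and 1 event was higher with pladienolide B. With the library as a block the allelic count was 0 in all 7 tissues. Leaving out a library, with the shared dispersion, gave 5 to 7 in cortex, 14 to 22 in heart, 2 to 4 in kidney, 11 in lung, 6 to 7 in spleen, 3 to 4 in liver and 6 to 8 in ESC, a lone library being assumed to vary like the others. Leaving out a fibroblast library gave 24 to 37 lower and 0 to 1 higher. Deviations of same-numbered DMSO and treated libraries correlated at 0.00507, which does not show whether these libraries were handled together. With the numbers as a replicate block 0 were lower and 0 higher. In that quasi-binomial test 42 of 440 had an unadjusted p under 0.05. With the block and the dispersion of the fit without it, 36 were lower and 1 higher. A minimum of 50 reads left 1 higher.

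Among named exons, Arhgap12 (adjusted p = 0.0709), Mapk8ip3 (0.133) and Upp1 (0.102) missed the threshold with the replicate block, and the further calls lost between tissues are given beside Arhgef1, Arhgap12, Mapk8ip3 and Upp1. The log2 fold change of Nova1 in heart turned to 0.20 with a pseudocount of 0.1, and that of Celf2 in heart ranged from -0.03 without the second heart library to 0.04 without the first; neither was called in the main comparison, but Celf2 was with a pseudocount of 0.1 (0.35, adjusted p = 0.0351 by limma). The causes were not tested. The edgeR alternatives were not run, because the counts of inclusion and skipping are held as lists in a cell and were analysed by the quasi-binomial test alone. Allelic PSI was limited to events with 20 reads per allele and library.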

Other observations

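The comparisons took autosomal events, and the X chromosome held 42 further events of 30 bp or less with the same read minimum, for 34 exons in 28 genes. Of these exons 28 were in frame, 16 had a switch score of 0.5 or more and 12 had a mean PSI in cortex at least 0.1 above every other tissue. Shares for X-linked exons of any length were not computed, so these counts only describe the exons listed. L1cam, an adhesion molecule of axons, had a 15 bp exon whose PSI averaged 0.992 in cortex and 0.153 in heart, and a 12 bp exon at 0.995 in cortex and 0.128 in kidney, the next tissue. The 9 bp exon of Ap1s2, a subunit of a clathrin adaptor, stood at 0.949 in cortex and at most 0.0124 in heart, kidney and lung. In Mtmr1, a phosphoinositide phosphatase, neighbouring exons had unlike profiles: the 27 bp exon was at 0.86 in heart and 0.0144 in cortex, and the 24 bp exon at 0.894 in cortex and 0.0342 in ESC. These values are means of 2 libraries and were not tested.

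The ESC clones lay far apart in some micro-exons. Examples, chosen after the values were seen, are the 18 bp exon of Dst, a cytoskeletal linker, at 0.465 and 0.0549, the 12 bp exon of Myo18a, an unconventional myosin, at 0.0292 and 0.432, and the 18 bp exon of Ctnnd1 at 0.41 and 0.874.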
